A study of Homo sapiens with 11 samples.

Results

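INSIG1, INSIG2, SREBF1, SREBF2, SCAP, STARD4, MYLIP and LPIN1 were examined as genes of sterol sensing and uptake, taken by gene name from the 58735 genes of the count table. Each of the 8 was found and passed the filter on low counts, as did 18368 genes in all. HEK293T, a line derived from human embryonic kidney, had been grown in medium with serum and transfected for 48 h with an siRNA against NAE1, UBE2M or URM1, to learn which genes depend on the ubiquitin-like modifier URM1 and on enzymes said to control it. The groups were siNAE1 (50 nM, n = 3), siUBE2M (70 nM, n = 3), siURM1 (60 nM, n = 2) and control (n = 3), each a set of poly(A) RNA libraries. The labels name a control siRNA for the control cells whereas a supplementary figure of the study names them HKWT. The methods of the study mention a non-targeting siRNA as negative control without a dose, so the treatment of these libraries is given here as labelled. Had the control cells not been transfected, changes shared by the knockdowns could not be told apart from an effect of transfection. The study lists an siRNA sequence per target, so effects of that sequence on other genes cannot be told apart from those of the knockdown. The labels call the replicates biological, and total counts per library ran from 11733163 to 16321391.

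INSIG1 and INSIG2 encode proteins of the endoplasmic reticulum that hold the sterol sensor SCAP in place when sterols are plentiful. When sterols are scarce, SCAP escorts the membrane-bound transcription factors encoded by SREBF1 and SREBF2 to the Golgi, where proteases release the part that enters the nucleus and switches on genes of lipid synthesis and lipoprotein uptake, INSIG1 among them. MYLIP, a ubiquitin ligase induced by the oxysterol receptors LXR, marks lipoprotein receptors for degradation, STARD4 carries cholesterol between membranes, and LPIN1 makes diacylglycerol from phosphatidic acid. Counts of mRNA do not measure the cleavage of the SREBF1 and SREBF2 proteins.

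Upstream sequence of INSIG1 and SREBF2 is shown because INSIG1 changed the most of the 8 genes and because the SREBF2 window was the 1 of 11 that held the sterol regulatory element searched for. Each stretch is the 250 bases before the RefSeq start on GRCh38.p14, read along the gene's strand, and all 8 genes matched the RefSeq promoter table with 11 windows. Capitals mark matches on either strand to the sterol regulatory element, searched as TCACNCCAC, and to 3 shorter motifs. These were the E-box with the letters CACGTG, the box named for its letters CCAAT, and the GC box with the letters GGGCGG, of which neighbours may overlap. The INSIG1 stretch lies at chr7:155297628-155297877 on the + strand, and the SREBF2 stretch at chr22:41832855-41833104 on the + strand.
INSIG1: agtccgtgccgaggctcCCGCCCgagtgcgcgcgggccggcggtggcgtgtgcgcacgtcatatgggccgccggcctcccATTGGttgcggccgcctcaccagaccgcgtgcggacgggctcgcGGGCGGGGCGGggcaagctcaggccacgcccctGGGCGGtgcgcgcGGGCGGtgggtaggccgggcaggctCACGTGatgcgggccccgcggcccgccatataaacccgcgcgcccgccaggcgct
SREBF2: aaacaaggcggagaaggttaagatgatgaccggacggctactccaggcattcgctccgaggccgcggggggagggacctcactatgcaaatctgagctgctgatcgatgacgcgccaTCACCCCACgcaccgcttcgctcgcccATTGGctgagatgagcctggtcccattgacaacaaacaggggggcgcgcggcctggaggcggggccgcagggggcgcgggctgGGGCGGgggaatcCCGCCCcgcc

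The INSIG1 stretch held an E-box 55 to 50 bases before the start, a CCAAT box on the opposite strand and 5 GC boxes. In SREBF2, TCACCCCAC lay 133 to 125 bases before the start, followed by a CCAAT box on the opposite strand 106 to 102 bases before it. Over all 35116 windows of the table, 0.883% held the sterol regulatory element, 6.34% the E-box, 32.0% the CCAAT box and 42.6% the GC box. A match is a description of the letters, not a binding site. The count table starts INSIG1 102 bases and SREBF2 26 bases upstream of the RefSeq starts, inside the stretches shown.

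The targeted genes were read first as a check of the labels. NAE1, which encodes a subunit of the NEDD8-activating enzyme, had 41.6, 42.6 and 35.2 CPM (counts scaled to a common library size with TMM factors) in the siNAE1 libraries and 98.9, 109.2 and 99.0 in the controls. UBE2M, which encodes a NEDD8-conjugating enzyme, had 15.6, 15.6 and 19.1 CPM in siUBE2M and 262.6, 267.7 and 263.9 in the controls. URM1 had 15.2 and 15.5 CPM in siURM1 and 54.4, 51.0 and 55.4 in the controls. Each targeted gene was lowest in the libraries labelled with its siRNA, with no overlap with any other group, and the log2 fold changes against control were -1.36 for NAE1, -3.98 for UBE2M and -1.80 for URM1. In bulk samples, fewer cells with an mRNA and less of it per cell cannot be told apart.

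INSIG1 rose in all 3 knockdowns and was the member with the widest range of levels. The gene (ENSG00000186480, chr7:155297776-155310235 on the + strand of GRCh38) had 48.4, 53.3 and 49.2 CPM in the controls, 106.2, 100.1 and 103.9 in siUBE2M, 255.2, 246.6 and 252.3 in siNAE1, and 325.6 and 313.5 in siURM1. The 4 groups did not overlap, and their order from low to high was control, siUBE2M, siNAE1 and siURM1. The counts behind these values ran from 780 to 866 in the controls and reached 5217 and 4526 in siURM1. Against control, the edgeR quasi-likelihood test gave log2 fold changes of 2.32 ± 0.06 (SE) in siNAE1 (adjusted p = 1.4e-23), 1.04 ± 0.06 in siUBE2M (adjusted p = 2.1e-14) and 2.67 ± 0.07 in siURM1 (adjusted p = 4.6e-24). In fold terms the level was 5.00 times that of control in siNAE1, 2.06 times in siUBE2M and 6.36 times in siURM1. Among the 18368 tested genes, INSIG1 ranked 1 by p in siURM1 and 3 in siNAE1, and 42 and 78 from the top by log2 fold change. In siUBE2M its ranks were 70 by p and 764 by log2 fold change.

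The knockdowns also differed from each other in INSIG1. Its level in siNAE1 exceeded that in siUBE2M by a log2 difference of 1.28 ± 0.06 (edgeR adjusted p = 6.3e-17) and lay below that in siURM1, with a log2 difference of -0.35 ± 0.07 (edgeR adjusted p = 6.6e-05). Between siUBE2M and siURM1 the log2 difference was -1.63 ± 0.07 (edgeR adjusted p = 1.4e-18). The value in siUBE2M lay close to the threshold of 1 used to call a differentially expressed gene (DEG): it was 0.98 with library totals in place of TMM, and glmTreat, which tests against a log2 fold change of 1, did not call it.

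**Figure D1:**
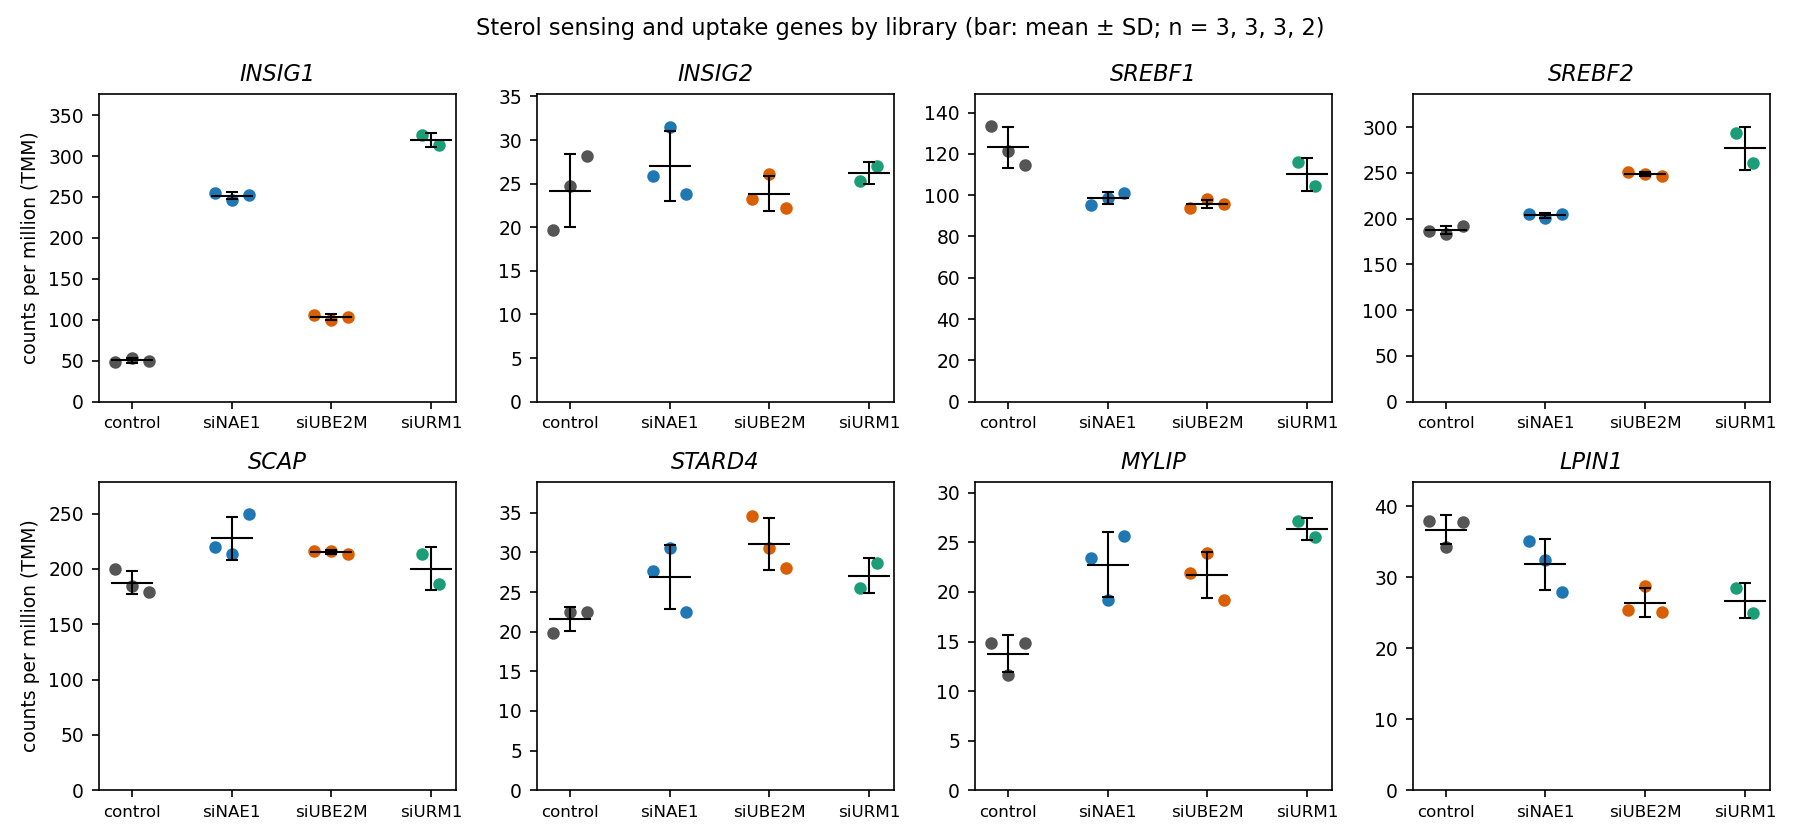
Level of each of the 8 genes in each library, in TMM-scaled CPM on linear axes from 0, with 1 point per library and a bar for the mean ± SD of a group. INSIG1 separates the 4 groups, from 48.4 CPM in a control to 325.6 in a siURM1 library, while the groups of INSIG2 overlap.

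INSIG2, the paralog that also anchors SCAP, did not pass the test in any knockdown. Its level (ENSG00000125629, chr2:118088452-118110997, + strand) was 19.7, 24.7 and 28.1 CPM in the controls, 25.9, 31.5 and 23.8 in siNAE1, 23.3, 26.1 and 22.2 in siUBE2M, and 25.3 and 27.1 in siURM1. Every knockdown overlapped the controls, whose own lowest and highest libraries lay further apart than the group means. The log2 fold changes were 0.17 (95% interval -0.06 to 0.40), -0.02 (-0.25 to 0.21) and 0.12 (-0.14 to 0.37) in siNAE1, siUBE2M and siURM1, with edgeR adjusted p of 0.23, 0.91 and 0.5. The intervals are a normal approximation from the SE, not taken from the edgeR test, and can be too narrow with so few libraries. Leaving out a library moved the siNAE1 value between 0.04 (without control replicate 1 or siNAE1 replicate 2) and 0.29 (without control replicate 3), with edgeR adjusted p of 0.051 to 0.82 and no call. Without control replicate 1 or 3 the values were -0.14 and 0.11 in siUBE2M and -0.0035 and 0.25 in siURM1. Each 95% interval of INSIG2 includes 0, that of siNAE1 reaching only to -0.06 downward, and each lies below the change of INSIG1.

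Per length, as the ratio of FPKM within a library, INSIG1 to INSIG2 was 2.65, 2.33 and 1.89 in the controls and 4.94, 4.15 and 5.07 in siUBE2M. It was 10.7, 8.46 and 11.5 in siNAE1 and 13.9 and 12.5 in siURM1. The groups did not overlap, and the mean ratio moved from 2.29 ± 0.38 (SD, n = 3) in control to 13.2 ± 0.98 (SD, n = 2) in siURM1.

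SREBF2, which encodes the factor that favours genes of cholesterol synthesis, was higher in siUBE2M and siURM1. The gene (ENSG00000198911, chr22:41833079-41907308, + strand) had 186.1, 183.6 and 192.4 CPM in the controls, 205.1, 200.2 and 204.9 in siNAE1, 250.7, 248.8 and 246.7 in siUBE2M, and 293.3 and 260.2 in siURM1. No 2 groups overlapped, although the siNAE1 libraries lay only a little above the controls. The log2 fold change was 0.41 ± 0.06 in siUBE2M (edgeR adjusted p = 8.2e-07) and 0.56 ± 0.07 in siURM1 (edgeR adjusted p = 1.7e-08). In siNAE1 it was 0.12 ± 0.06 and missed the threshold (edgeR adjusted p = 0.09), and with library totals in place of TMM it was -0.01. Tested directly, siNAE1 was below siUBE2M by a log2 difference of -0.29 ± 0.06 (edgeR adjusted p = 1.3e-04) and below siURM1 by -0.44 ± 0.07 (edgeR adjusted p = 1.6e-06). The difference of siUBE2M from siURM1 did not pass (-0.15, edgeR adjusted p = 0.063, range over the alternatives 0.024 to 0.6), although 3 of 22 alternatives called it. It was -0.24 without siURM1 replicate 2 (edgeR adjusted p = 0.024), -0.16 without siNAE1 replicate 3 (edgeR adjusted p = 0.048) and -0.07 without siURM1 replicate 1.

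SREBF1, whose products favour genes of fatty acid synthesis, was lower in siNAE1 and siUBE2M. It had (ENSG00000072310, chr17:17810399-17837002, - strand) 133.7, 121.2 and 114.5 CPM in the controls, 95.4, 98.8 and 101.2 in siNAE1, 94.0, 98.0 and 95.5 in siUBE2M, and 115.9 and 104.5 in siURM1. The siNAE1 and siUBE2M libraries lay below every control, and 1 of the 2 siURM1 libraries lay within the range of the controls. SREBF1 fell by 0.32 on the log2 scale in siNAE1 (edgeR adjusted p = 1.6e-04) and by 0.36 in siUBE2M (edgeR adjusted p = 5.3e-05). In siURM1 the log2 fold change was -0.16 ± 0.08 (edgeR adjusted p = 0.092, range over the alternatives 0.0086 to 0.56). It was -0.09 without control replicate 1 and -0.08 without siURM1 replicate 2, and the lowest value with 1 library left out was -0.23. With library totals it was -0.25 and past the threshold, and 20 of 22 alternatives made no call. The counts do not separate the SREBF1 isoforms that start from different promoters.

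The ratio of SREBF2 to SREBF1, per length and within a library, was 1.48, 1.61 and 1.79 in the controls, 2.28, 2.15 and 2.15 in siNAE1, 2.83, 2.70 and 2.75 in siUBE2M, and 2.69 and 2.65 in siURM1. Each knockdown library was above each control. The values of siUBE2M and siURM1 stood next to each other without overlapping.

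**Figure D2:**
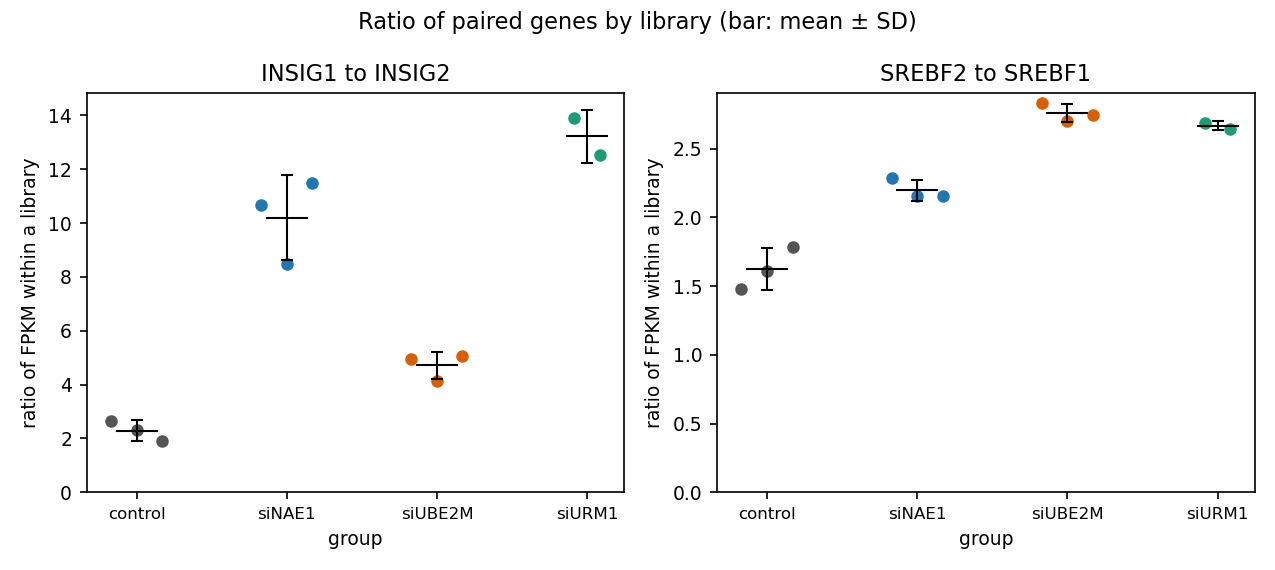
Ratio of FPKM within a library, INSIG1 to INSIG2 on the left and SREBF2 to SREBF1 on the right, with 1 point per library and a bar for the mean ± SD of a group. The INSIG1 to INSIG2 ratio lies between 1.89 and 2.65 in the controls and reaches 13.9 in siURM1.

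Host genes of the miR-33 pair, SREBF2 and SREBF1 also carry MIR33A and MIR33B inside their spans on the same strand. The mature sequences from RefSeq (GRCh38.p14) are shown because both arms share the seed, bases 2 to 8, marked in capitals. They lie at chr22:41900949-41900969 on the + strand and chr17:17813897-17813916 on the - strand.
hsa-miR-33a-5p: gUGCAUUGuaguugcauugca
hsa-miR-33b-5p: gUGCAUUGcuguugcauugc

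MIR33A had 0 to 3 counts per library and MIR33B 0 to 3, at or under the floor of 3 counts, so that no comparison was possible in these poly(A) libraries. SREBF2-AS1, which is annotated on the opposite strand over the SREBF2 start and shares 1587 bases with it, had 7.96 ± 0.34 CPM (SD, n = 3) in control, 13.5 ± 1.28 in siNAE1, 13.1 ± 0.63 in siUBE2M and 13.8 ± 1.81 in siURM1 (n = 2). All knockdown libraries of SREBF2-AS1 were above all controls, with log2 fold changes of 0.76, 0.72 and 0.79 (edgeR adjusted p = 9.7e-06, 2.7e-05 and 2.9e-05). The libraries were made with a strand-specific kit, but the strand setting of the counting is not given in the sources used here, so reads of SREBF2 and SREBF2-AS1 over the shared bases may not have been told apart. RAI1 overlaps the 3′ end of SREBF1 by 1055 bases on the opposite strand, with 841 to 1547 counts per library. Its log2 fold changes were -0.30 ± 0.07 (edgeR adjusted p = 0.0012), -0.41 ± 0.07 (3.2e-05) and -0.03 ± 0.08 (0.78), and whether reads over the shared bases were counted for both genes was not tested. STARD4-AS1 shares 365 bases with STARD4 and had 17 to 35 counts. The pseudogene AC099778.2 lies within SCAP and had 1 to 20 counts. MIR6777 in SREBF1, MIR4639 in MYLIP, and AC106875.1, AC012456.1, AC012456.2 and MIR548S in LPIN1 had at most 15 counts in a library.

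SCAP, the escort that binds sterols, changed little. Its level (ENSG00000114650, chr3:47413694-47477126, - strand) was 199.7, 184.5 and 179.0 CPM in the controls, 219.8, 213.4 and 249.7 in siNAE1, 216.6, 216.5 and 213.6 in siUBE2M, and 213.9 and 186.4 in siURM1. The siNAE1 and siUBE2M libraries lay above the controls, whereas the siURM1 libraries straddled the top of the control range. The log2 fold change was 0.28 ± 0.07 in siNAE1 (edgeR adjusted p = 6.8e-04), 0.20 ± 0.07 in siUBE2M (edgeR adjusted p = 0.014) and 0.09 ± 0.07 in siURM1 (edgeR adjusted p = 0.34). Leaving out control replicate 3 took the siUBE2M value to 0.17, and the call was lost (edgeR adjusted p = 0.064, range over the alternatives 0.0035 to 0.098). In siURM1 the value was 0.15 without control replicate 1, -0.01 without siURM1 replicate 1 and 0.19 without siURM1 replicate 2. With library totals the SCAP value shrank to 0.15 in siNAE1 (edgeR adjusted p = 0.052, range over the alternatives 6.9e-05 to 0.052) and 0.14 in siUBE2M (edgeR adjusted p = 0.082), and both calls were lost.

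STARD4 was higher in each knockdown, at a low level. The gene (ENSG00000164211, chr5:111496033-111512590, - strand) had 19.8, 22.5 and 22.5 CPM in the controls, 27.7, 30.6 and 22.5 in siNAE1, 34.6, 30.6 and 28.1 in siUBE2M, and 25.5 and 28.6 in siURM1. The lowest siNAE1 library all but touched the highest control, and the siUBE2M libraries stood clear of the controls. STARD4 had a log2 fold change of 0.53 ± 0.11 in siUBE2M (edgeR adjusted p = 1.4e-04), 0.33 ± 0.11 in siNAE1 (edgeR adjusted p = 0.012) and 0.33 ± 0.12 in siURM1 (edgeR adjusted p = 0.028). The siNAE1 call was lost without control replicate 1 (0.27, edgeR adjusted p = 0.068) or siNAE1 replicate 2 (0.22, edgeR adjusted p = 0.12), with a range of adjusted p of 0.0014 to 0.13 over the alternatives, and was kept in 16 of 22. The siURM1 call was lost without control replicate 1 (0.28, edgeR adjusted p = 0.098) or siURM1 replicate 2 (0.25, edgeR adjusted p = 0.23), with a range of 0.014 to 0.23, and was kept in 15 of 22.

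MYLIP rose in all 3 knockdowns. It had (ENSG00000007944, chr6:16129125-16148248, + strand) 14.9, 11.6 and 14.9 CPM in the controls, 23.4, 19.2 and 25.7 in siNAE1, 21.9, 23.9 and 19.2 in siUBE2M, and 27.2 and 25.6 in siURM1. Every knockdown library exceeded every control, and siNAE1 overlapped both other knockdowns. The log2 fold changes were 0.72 ± 0.12 in siNAE1 (edgeR adjusted p = 7.3e-06), 0.66 ± 0.12 in siUBE2M (edgeR adjusted p = 3.8e-05) and 0.93 ± 0.13 in siURM1 (edgeR adjusted p = 6.0e-07). The differences between knockdowns did not pass the test, with edgeR adjusted p of 0.088 to 0.7. Without control replicate 1, or without control replicate 3, the siURM1 value reached 1.00 and MYLIP became a DEG.

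LPIN1, a phosphatidate phosphatase gene, was lower in siUBE2M and siURM1. Its level (ENSG00000134324, chr2:11677595-11827409, + strand) was 37.9, 34.3 and 37.9 CPM in the controls, 35.1, 32.4 and 28.0 in siNAE1, 25.4, 28.8 and 25.1 in siUBE2M, and 28.5 and 25.0 in siURM1. The siUBE2M and siURM1 libraries lay below the controls, and siNAE1 overlapped them. LPIN1 fell by 0.47 on the log2 scale in siUBE2M (edgeR adjusted p = 1.5e-04) and by 0.46 in siURM1 (edgeR adjusted p = 9.1e-04). In siNAE1 the log2 fold change was -0.20 ± 0.10 (edgeR adjusted p = 0.075), which passed without siNAE1 replicate 1 (-0.27, edgeR adjusted p = 0.032, range over the alternatives 0.0069 to 0.33). It also passed with library totals (-0.33), upper-quartile scaling (-0.22), a stricter filter (-0.23) or 2 groups per fit (-0.22), so that 5 of 22 alternatives made the call. Without siNAE1 replicate 3 it was -0.12.

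**Figure D3:**
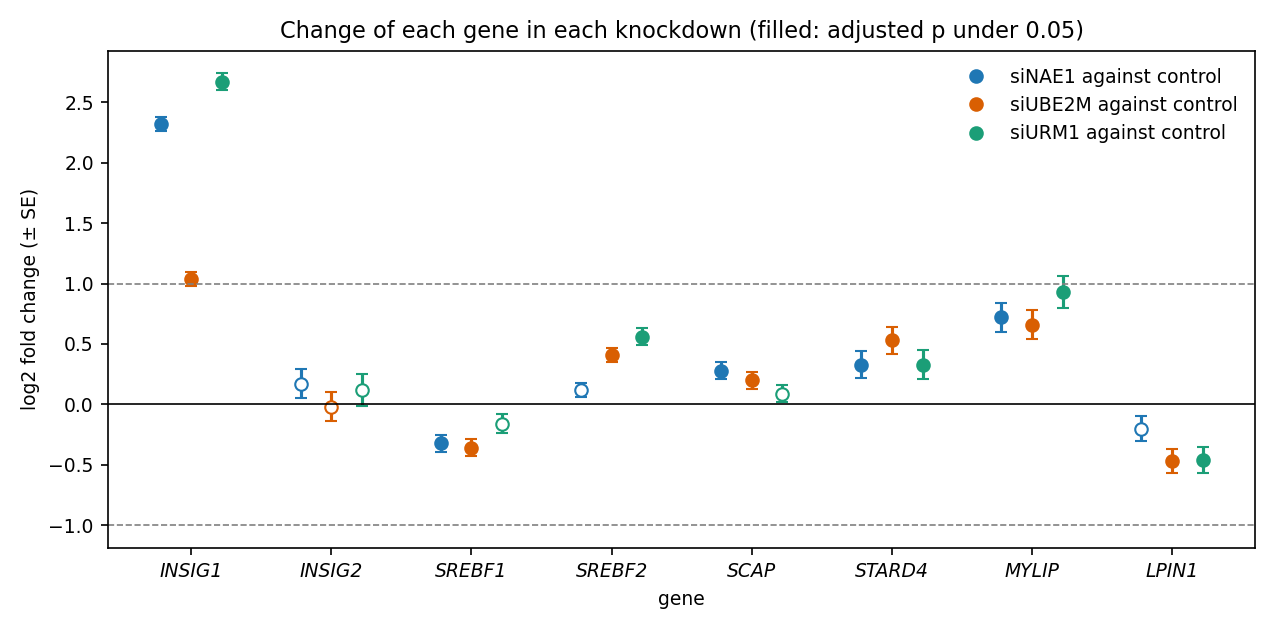
The log2 fold change of each gene against control in siNAE1, siUBE2M and siURM1, with SE as error bars, filled where the edgeR adjusted p was under 0.05, and dashed lines at -1 and 1. INSIG1 lies above the upper line in all 3 knockdowns, whereas the other genes lie between the lines.

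Against control and with TMM, 4 of the 8 genes passed upward and 1 downward in siNAE1. There, 27.6% of all tested genes passed upward and 27.1% downward. In siUBE2M, 5 passed upward and 2 downward, beside 22.7% and 22.6% of all tested genes. In siURM1, 4 passed upward and 1 downward, beside 20.8% and 20.8%. INSIG1 was the 1 DEG of the 8 in each knockdown, where 13.9%, 7.11% and 7.62% of the tested genes were DEGs in siNAE1, siUBE2M and siURM1. With TMM, the median log2 fold change of the 8 was 0.22, 0.30 and 0.22, beside -0.0021, 0.01 and -0.02 over all tested genes. The counts by direction depend on the scaling. Among the changes with library totals, SCAP lost its upward call in siNAE1 (0.15) and siUBE2M (0.14). LPIN1 then passed downward in siNAE1 (-0.33), and SREBF1 in siURM1 (-0.25). The 3 comparisons share the control libraries, and the 8 genes were chosen with earlier results of these data known.

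With library totals in place of TMM, the median of all tested genes shifted to -0.13 in siNAE1, -0.05 in siUBE2M and -0.11 in siURM1. The share of called genes that were higher then moved from 50.5% to 38.3% in siNAE1, from 50.1% to 41.8% in siUBE2M and from 50.0% to 38.5% in siURM1.

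Between knockdowns, 3 of the 8 genes passed for siNAE1 against siUBE2M (44.3% of all tested genes), 3 for siNAE1 against siURM1 (38.6%) and 2 for siUBE2M against siURM1 (35.0%). INSIG1 and SREBF2 accounted for 5 of these calls. The others were LPIN1 in siNAE1 against siUBE2M (0.27, edgeR adjusted p = 0.025), SCAP in siNAE1 against siURM1 (0.18, edgeR adjusted p = 0.049) and SREBF1 in siUBE2M against siURM1 (-0.20, edgeR adjusted p = 0.038). These last 3 kept their calls in 14, 5 and 11 of 22 alternatives, over which the adjusted p ranged from 0.0049 to 0.17, 0.02 to 0.52 and 0.027 to 0.38. Leaving out 1 library gave 0.20 to 0.36 for LPIN1, 0.09 to 0.29 for SCAP (lowest without siURM1 replicate 2, highest without siURM1 replicate 1) and -0.28 to -0.13 for SREBF1 (nearest to 0 without siURM1 replicate 1). INSIG1 was a DEG in siNAE1 against siUBE2M and in siUBE2M against siURM1. For siNAE1 against siURM1, 0 of the 8 were DEGs by edgeR, DESeq2 or limma, and 5 had an unadjusted p under 0.05 in edgeR.

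Compared per length in FPKM, the control order from high to low was SCAP (28.9 ± 1.53, SD, n = 3), SREBF2 (24.6 ± 0.59), SREBF1 (15.2 ± 1.14), INSIG1 (13.7 ± 0.77), INSIG2 (6.08 ± 1.08), MYLIP (4.51 ± 0.60), STARD4 (3.76 ± 0.28) and LPIN1 (3.07 ± 0.16). The ranges of SREBF1 and INSIG1 overlapped, as did those of MYLIP and STARD4. INSIG1 moved from place 4 to place 1 in siNAE1 (67.9 ± 1.23 FPKM) and siURM1 (86.8 ± 2.27, n = 2), and to place 3 in siUBE2M (28.0 ± 0.91), behind SCAP and SREBF2. Among all tested genes its mean FPKM ranked 3600 in control, 1516 in siUBE2M, 585 in siNAE1 and 392 in siURM1. LPIN1 was in place 8 in each group, and MYLIP stood above INSIG2 in the 3 knockdowns, overlapping it in siNAE1 and siUBE2M.

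Genes around the 8 were described from lists of related function, chosen with earlier results of these data known. The shares over all tested genes beside them are therefore no test of a list. The list of SREBP processing and turnover holds 19 genes, of which 10 passed upward and 5 downward in siNAE1, 8 and 4 in siUBE2M, and 9 and 5 in siURM1, with medians of 0.28, 0.15 and 0.19. For this and the lists below, the shares of all tested genes that passed upward were 27.6%, 22.7% and 20.8%, and downward 27.1%, 22.6% and 20.8%. The downward counts here are near those shares. With library totals the medians were 0.16, 0.09 and 0.10. MBTPS2, the intramembrane protease of SREBP release, fell in all 3 knockdowns, with log2 fold changes of -1.12 ± 0.10, -0.75 ± 0.10 and -0.58 ± 0.11. MBTPS1, the protease that acts before it, had -0.19, 0.36 and 0.25. ERLIN2, which helps to degrade the INSIG1 protein and sterol enzymes, went from 100.5 ± 5.50 CPM in control to 42.9 ± 0.44 in siNAE1 and 42.1 ± 2.80 in siURM1 (n = 2), with log2 fold changes of -1.23 ± 0.08 and -1.25 ± 0.09, and -0.21 ± 0.07 in siUBE2M. ERLIN1, its partner, rose in each knockdown (0.56 ± 0.07, 0.38 ± 0.07 and 0.44 ± 0.08). RNF139 and RNF145, ubiquitin ligases of the endoplasmic reticulum, rose in siNAE1 (0.83 and 0.64) and siURM1 (0.73 and 0.41), while their values in siUBE2M were -0.08 and -0.08. CREBBP, a coactivator of nuclear SREBPs, fell by 0.98, 0.68 and 1.14 on the log2 scale. VCP, the segregase that extracts proteins from the membrane, was highest of the list in siNAE1 (0.83), and SEC24C, part of the vesicle coat, in siUBE2M (0.58).

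Of 20 SREBF2 targets of cholesterol synthesis, 15 passed upward and 2 downward in siNAE1, 15 and 1 in siUBE2M, and 17 and 2 in siURM1, beside 27.6%, 22.7% and 20.8% of all tested genes upward. Their median log2 fold changes were 0.68, 0.45 and 0.59 (0.55, 0.39 and 0.50 with library totals), and the CPM summed over the list ran from 888.7 to 900.6 in the controls, 1560 to 1620 in siNAE1, 1315 to 1367 in siUBE2M and 1454 to 1458 in siURM1. MSMO1, a sterol demethylase, was highest in siNAE1 (1.56 ± 0.09) and siUBE2M (1.15 ± 0.09). PMVK, a kinase of the mevalonate pathway, was lowest in each, at -1.04 ± 0.09, -0.55 ± 0.09 and -0.40 ± 0.10. In siNAE1 the summed level was the highest of the 3 knockdowns, whereas INSIG1 was highest in siURM1.

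Of 12 SREBF1 targets of fatty acid synthesis, 8 passed upward and 1 downward in siNAE1, 7 and 2 in siUBE2M, and 6 and 2 in siURM1, with medians of 0.51, 0.32 and 0.19 (0.39, 0.26 and 0.10 with library totals). The upward shares over all tested genes were 27.6%, 22.7% and 20.8%. ACLY, which makes cytosolic acetyl-CoA, led in siNAE1 (0.99 ± 0.06), the fatty acid synthase gene FASN in siUBE2M (0.60 ± 0.07) and the desaturase gene SCD in siURM1 (1.16 ± 0.06). The desaturase gene FADS1 was lowest in siNAE1 (-0.46 ± 0.07), and GPAM, an acyltransferase gene, in siUBE2M (-0.46 ± 0.08) and siURM1 (-0.44 ± 0.09). SREBF1 itself was lower in siNAE1 and siUBE2M while more of the list passed upward than downward.

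Of 15 genes of sterol transport and storage, 7, 9 and 7 passed upward and 2, 1 and 2 downward in siNAE1, siUBE2M and siURM1, with medians of 0.18, 0.22 and 0.28 (0.06, 0.16 and 0.19 with library totals). Over all tested genes, 27.6%, 22.7% and 20.8% passed upward and 27.1%, 22.6% and 20.8% downward. NPC2, a lysosomal cholesterol carrier, was highest in siNAE1 (1.08 ± 0.08), and GRAMD1C, of a family of sterol transporters, in siUBE2M (0.98 ± 0.17) and siURM1 (0.86 ± 0.18). SOAT1, which esterifies cholesterol for storage, was lowest in siNAE1 (-0.65 ± 0.08) and siUBE2M (-0.42 ± 0.08), and OSBPL9 in siURM1 (-0.38 ± 0.07).

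Among 8 LXR receptors and targets, 4, 3 and 3 passed upward and 2, 0 and 2 downward, with medians of 0.31, 0.04 and 0.05, and the last 2 medians were -0.01 and -0.04 with library totals. With 8 genes, counts of 2 and 3 are near the shares over all tested genes, 20.8% to 27.6% in each direction. ABCA1, which exports cholesterol and is an LXR target as MYLIP is, had 2.41 ± 0.11 CPM in control, 4.32 ± 0.32 in siNAE1, 12.4 ± 2.03 in siUBE2M and 5.39 ± 0.12 in siURM1 (n = 2). It rose by log2 fold changes of 0.85 ± 0.20, 2.36 ± 0.19 and 1.16 ± 0.21. Of the LXR genes, NR1H2 rose in all 3 knockdowns (0.43 ± 0.09, 0.71 ± 0.09 and 0.34 ± 0.10), whereas NR1H3 was lowest of the list in siURM1 (-0.74 ± 0.15), RXRA in siNAE1 (-0.27 ± 0.09) and ABCG1, at -0.17 ± 0.17 and not past the threshold, in siUBE2M. ABCG1, a further LXR target, rose in siNAE1 (0.48 ± 0.16) and fell in siURM1 (-0.57 ± 0.20). LPCAT3 rose in siNAE1 (0.81 ± 0.13), with -0.0029 in siUBE2M and -0.20 in siURM1, neither past the threshold.

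Of 6 partners and substrates of MYLIP, 2, 2 and 1 passed upward and 2, 2 and 2 downward, about the shares over all tested genes (20.8% to 27.6%). The medians were 0.08, -0.10 and -0.12, and the siNAE1 median was -0.04 with library totals. LRP8, a lipoprotein receptor gene, rose in siNAE1 (1.26 ± 0.10), siUBE2M (0.42 ± 0.10) and siURM1 (0.71 ± 0.11). VLDLR, a related receptor gene, fell in siNAE1 (-0.77 ± 0.12) and siURM1 (-0.47 ± 0.13) and rose in siUBE2M (0.31 ± 0.11). UBE2D2, which encodes a ubiquitin-conjugating enzyme, fell by 0.37, 0.73 and 0.46 on the log2 scale. USP2, a deubiquitinase gene, had 0.10, -0.09 and 0.20, none past the threshold in edgeR.

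The last list holds 9 genes, namely lipin family members, nearby lipid enzymes and the transcription regulators PPARGC1A and PPARA. Of the 9, 2, 5 and 5 passed upward and 1, 0 and 1 downward. The medians were 0.13, 0.33 and 0.34 (0.004, 0.27 and 0.25 with library totals). Upward calls included PPARGC1A in siUBE2M (0.75) and siURM1 (0.59) and PPARA in siUBE2M (0.33). Upward, 27.6%, 22.7% and 20.8% of all tested genes passed, and the siNAE1 counts lie below that and the downward share of 27.1%. LPIN3, a paralog of LPIN1, rose in siUBE2M (1.06 ± 0.10), where LPIN1 was lower. DGAT1 was highest in siNAE1 (0.64 ± 0.09) and siURM1 (0.69 ± 0.10), and DGAT2, which also makes triglyceride, was lowest there (-1.18 ± 0.18 and -0.63 ± 0.19). In siUBE2M, CNEP1R1 was lowest, at -0.17 ± 0.12.

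**Figure D4:**
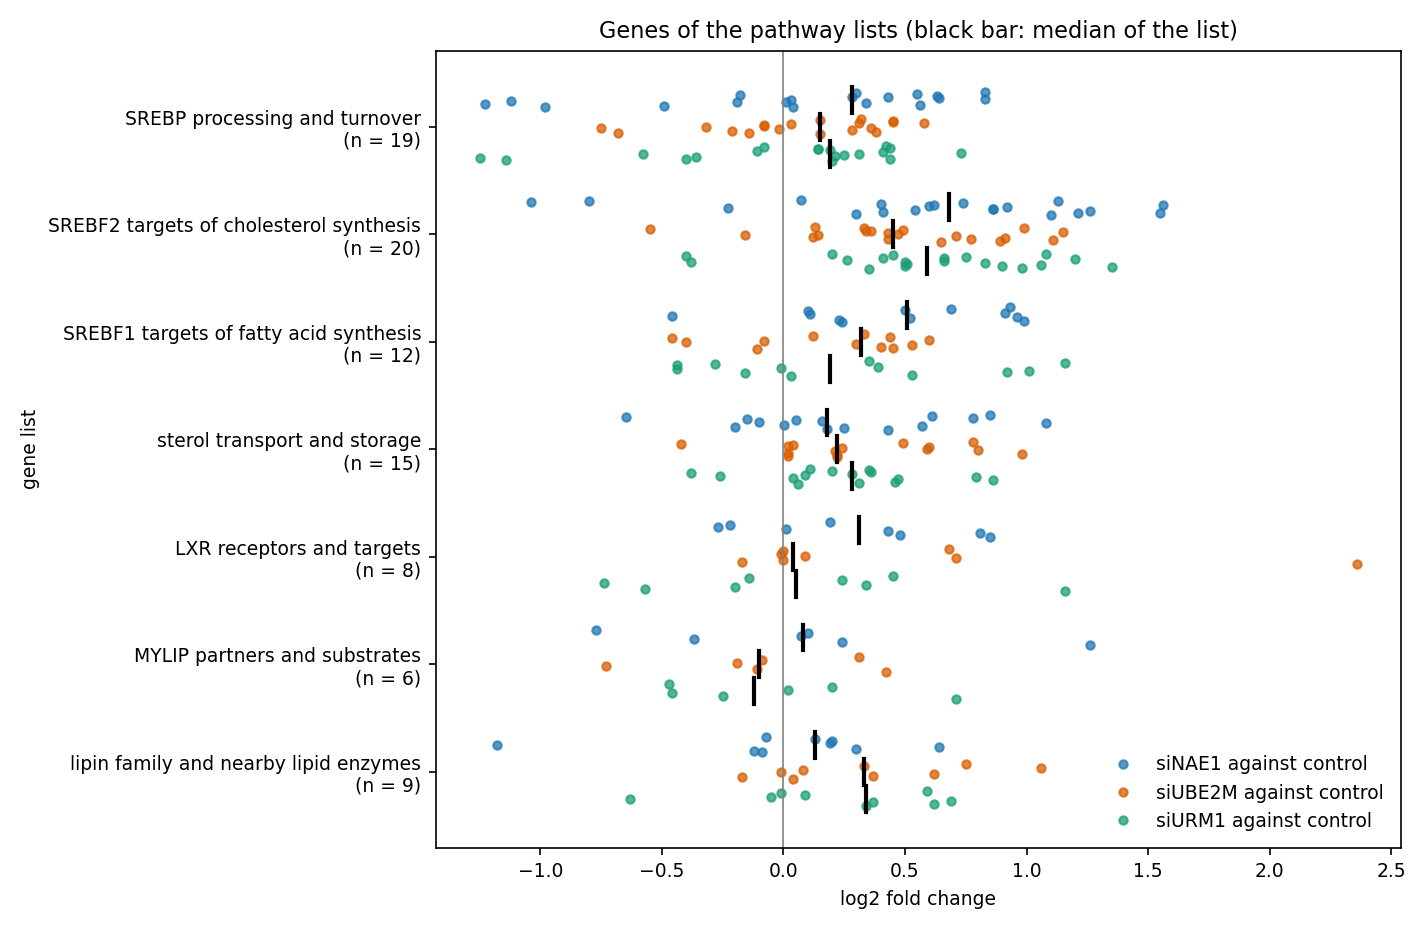
The log2 fold change against control of each gene of the 7 lists, 1 point per gene, coloured by knockdown, with a black bar at the median of the list. The medians of the cholesterol synthesis list are 0.68, 0.45 and 0.59 in siNAE1, siUBE2M and siURM1.

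The genes nearest to INSIG1 were taken by the root mean square difference of log2 CPM, centred on each gene's mean, over the 11 libraries, among the 10460 tested genes whose mean level reached 10 CPM. They were ADAMTS1 (0.25), JUNB (0.30), CXCR4 (0.30), FOS (0.31) and HMOX1 (0.33). ADAMTS1, a secreted metalloprotease gene, had 85.2 ± 1.86 CPM in control, 113.6 ± 6.80 in siUBE2M, 389.2 ± 15.5 in siNAE1 and 425.8 ± 15.8 in siURM1 (n = 2). JUNB, which encodes a subunit of the transcription factor AP-1, had 9.49 ± 1.65, 14.4 ± 0.76, 28.7 ± 3.54 and 48.2 ± 2.53 CPM in the same order. The 5 were picked for a profile like that of INSIG1, so their order of groups is no result. FOS, CXCR4 and JUNB, with means of 4.55, 4.85 and 9.49 CPM in control, reached 10 CPM only through groups where they are high. Nearest to SREBF1 were LTBP3 (0.05), ERGIC1 (0.06), STT3A (0.07), MYBBP1A (0.07) and NOL10 (0.07), whose smaller distances go with the narrower range of SREBF1.

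**Figure D5:**
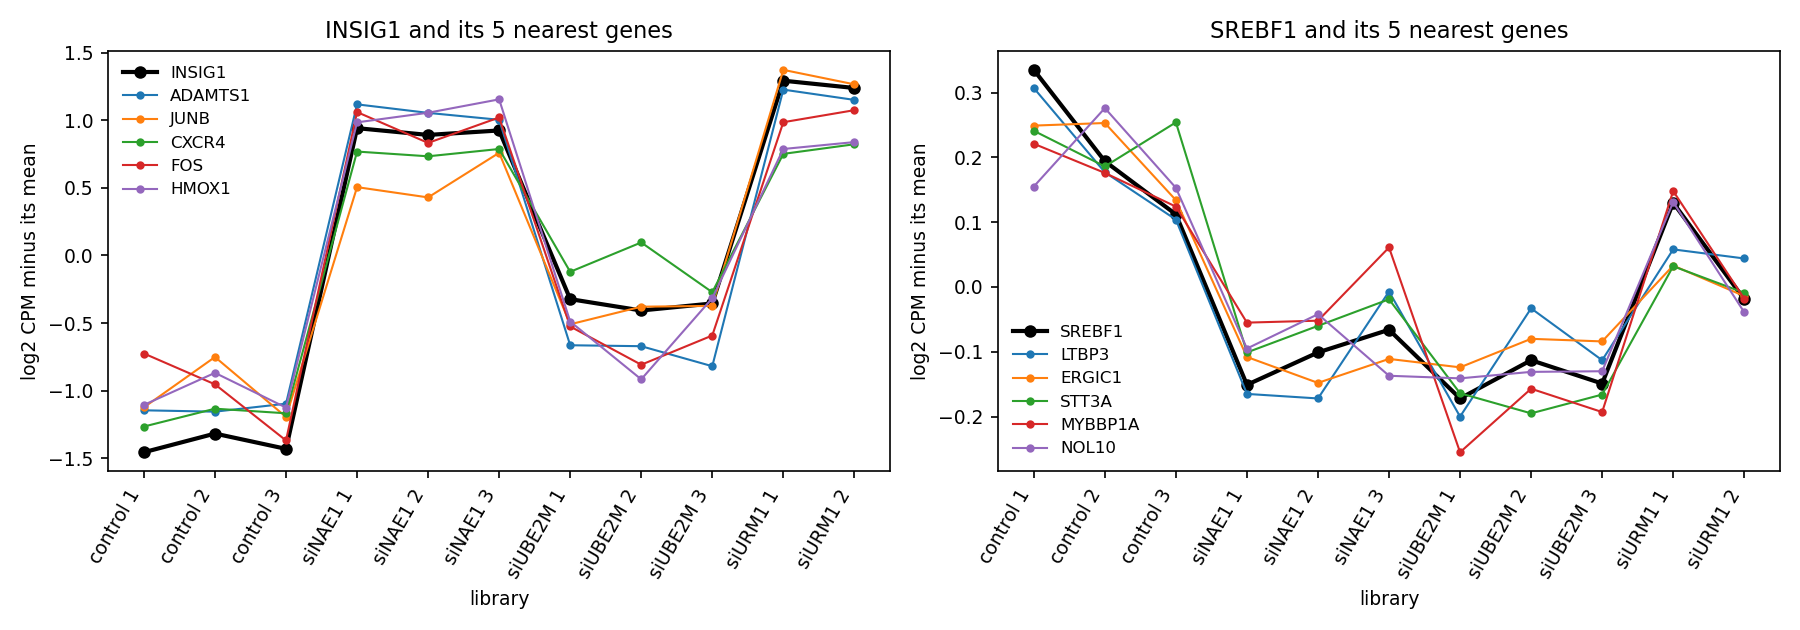
Log2 CPM minus the gene's own mean in each of the 11 libraries, for INSIG1 (left, black) and SREBF1 (right, black) with the 5 nearest genes of each, where lines only join the points of a gene. INSIG1 is high in siNAE1 and siURM1. Its nearest genes were picked for a like profile, so their order of groups is no result. For FOS and HMOX1 the controls overlap siUBE2M.

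The cell type was checked with marker genes. All 6 genes listed for HEK293T (PAX2, LHX1, NES, NEFL, NEFM and VIM) were above 3 counts in every library, and their summed level was 315.0 to 343.4 CPM in the controls, 506.8 to 552.2 in siNAE1, 453.9 to 540.8 in siUBE2M and 535.2 to 594.2 in siURM1. Of these, 4, 3 and 4 passed upward in siNAE1, siUBE2M and siURM1 (27.6%, 22.7% and 20.8% of all tested genes) and 0, 1 and 0 downward (27.1%, 22.6% and 20.8%), and VIM had the most counts. Among 5 markers of other cell types, PTPRC, CDH5 and DES had 0 to 3, 0 to 1 and 0 to 3 counts and ALB 0 to 9. COL3A1, a fibroblast collagen gene and the most abundant of the 5, had 22 to 107 counts and rose by log2 fold changes of 1.64 ± 0.23, 1.54 ± 0.23 and 1.18 ± 0.26. The summed level of these 5 was 1.72 to 3.02 CPM in the controls and 4.57 to 8.04 in the knockdowns, and its part in the changes of the 8 genes was not tested.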

How the data were processed

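HEK293T poly(A) RNA libraries of 4 groups were read from 2 deposited tables. Per the submitters' processing notes, the authors used fastp for trimming, HISAT2 2.0.5 for alignment (GRCh38) and featureCounts 1.5.0-p3 for counting by gene. The first table held their raw counts, and the second the FPKM that the authors deposited. The annotation version and the strand setting are not given in the sources used here. Each value column belonged to 1 library.

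Genes were tested on counts with edgeR 4.0.16 (R 4.3.3): filterByExpr, TMM scaling, 1 quasi-likelihood fit of 4 groups and 11 libraries, and Benjamini-Hochberg adjustment over all 18368 tested genes. The 4 groups shared 1 estimate of the spread because siURM1 had 2 libraries, and the biological coefficient of variation was 7.06%. A DEG had an adjusted p under 0.05 and lay 1 or more from 0 on the log2 scale. The p-values set a difference between groups against the spread between libraries within groups. That spread was estimated over the 4 groups and shared in part across genes. For siURM1, with 2 libraries, it thus rests in part on the other groups. Within groups, no 2 libraries agreed within sampling noise (chi-square per degree of freedom of 2.70 to 6.28).

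Levels were TMM-scaled CPM, or FPKM where genes were compared with each other. Named were the 8 genes, the targeted genes, overlapping genes, the 5 nearest genes, and genes that were highest or lowest of a list in a knockdown. Any gene of the lists for SREBP processing and MYLIP could be named too. NR1H2, LPCAT3, PPARGC1A and PPARA were named beyond this rule. The members and lists were chosen with earlier results of these data known. Promoters and miRNAs came from RefSeq tables (GRCh38.p14), and coordinates of genes from the count table. Alternatives were other scalings and filters, a replicate block, 2 groups per fit, each library left out, glmTreat, DESeq2 1.42.0, and limma 3.58.1 on log2 FPKM with a pseudocount of 1 or 0.1. The floor was 3 counts and covers counting error only. Tables and plots used Python 3.11.15, pandas 2.3.3 and matplotlib 3.10.9.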

Additional observations from a re-analysis of the deposited data

How the results depend on the processing

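Over 22 alternatives, which leave out glmTreat, INSIG1 kept its direction and an adjusted p under 0.05 in all 6 comparisons, and MYLIP, against control, in each knockdown. The log2 fold changes of INSIG1 against control stayed within 2.20 to 2.37 in siNAE1, 0.98 to 1.09 in siUBE2M and 2.58 to 2.72 in siURM1. Of 1056 values for single genes, 966 kept direction and side of the threshold, 54 lost a call, 15 gained one and 21 changed sign, none of the last past the threshold in the reported fit. The count of DEGs in siUBE2M, 1 as reported, was 0 with library totals, glmTreat or limma on log2(FPKM + 1). In siURM1 it was 1 to 2 when a library was left out. Passing genes between siUBE2M and siURM1, 2 as reported, numbered 1 with upper-quartile scaling, library totals, no filter, DESeq2 with 2 groups per fit or limma with either pseudocount, and 1 to 3 when a library was left out. With the replicate block they numbered 1 too, the siURM1 count against control went from 5 to 4 as STARD4 missed the threshold (0.27, edgeR adjusted p = 0.071, range 0.014 to 0.23), and other counts were as reported. Replicate numbers did not mark shared deviations (mean correlation -0.002 over 15 pairs, -0.066 to 0.079). Sign changes with library totals were SREBF1, siNAE1 against siUBE2M (-0.03), SREBF2, siNAE1 against control (-0.01), MYLIP, siNAE1 against siUBE2M (-0.01), and LPIN1, siUBE2M against siURM1 (0.02, also 0.01 with upper-quartile scaling). The replicate block gave 0.04 for STARD4, siNAE1 against siURM1, and 0.02 for LPIN1, siUBE2M against siURM1. Leaving out a library gave INSIG2 -0.14 to 0.11 in siUBE2M and -0.0035 to 0.25 in siURM1 against control and -0.08 to 0.14 for siNAE1 against siURM1, SCAP -0.01 to 0.19 in siURM1, STARD4 -0.10 to 0.11 for siNAE1 against siURM1, MYLIP -0.02 to 0.17 for siNAE1 against siUBE2M, and LPIN1 -0.11 to 0.08 for siUBE2M against siURM1. With log2(FPKM + 1), 3 of the 5 genes nearest to INSIG1 and 5 of the 5 nearest to SREBF1 were shared. List medians moved in 17 of 63 cases, 15 of them with library totals and the others with upper-quartile scaling. In siNAE1, library totals gave 0.16 for SREBP processing, 0.55 for cholesterol synthesis, 0.39 for fatty acid synthesis and 0.06 for transport and storage. They gave 0.19 for LXR, -0.04 for MYLIP partners and 0.004 for the list with the lipins. The cause of these shifts was not tested.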
